A study of Mus musculus with 677 samples.

Results

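Lyz1, Ang4, Mmp7, Itln1, Pla2g2a and Mptx2 encode secreted proteins of the Paneth cell other than its alpha-defensins. They were taken by name from the deposited expression table, 6 genes of 23420, and were followed across 9 annotated epithelial cell types, 2 genotypes and 2 runs. The table holds 677 single epithelial cells of the intestine of C57BL/6 mice. Wild-type (WT) mice gave 49.5% of them and mice with a knock-out (KO) of Atg16l2, a relative of the autophagy gene Atg16l1, the rest. The study asked what the loss of this autophagy gene does in the tissue. The code M1 or M2 in each cell's name was read as an animal, which gives 2 animals per genotype. The labels do not spell this out, so p-values measure only the spread between these 4 sets of cells. No age, sex or litter is used here, and the labels describe both groups by strain and genotype alone.

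Paneth cells sit at the base of the small intestinal crypt between the stem cells and release granules rich in antimicrobial proteins into the crypt lumen. Goblet cells, which secrete mucins and trefoil peptides, arise from the same secretory progenitors. Lyz1 encodes lysozyme, which cuts bacterial cell walls. Ang4 encodes a microbicidal ribonuclease of the angiogenin family. Itln1 encodes intelectin 1, a lectin that binds sugars of microbial surfaces, and Mptx2 encodes a mucosal pentraxin. Pla2g2a encodes a secreted phospholipase that attacks bacterial membranes, and the C57BL/6 strain is known to carry a disrupted copy of it. Mmp7 encodes matrilysin, the protease that activates the alpha-defensin precursors in the mouse. Granule packaging in Paneth cells is known to depend on autophagy proteins such as Atg16l1.

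The unit is TPM, a share of all transcripts in the cell that corrects for transcript length and has the same sum in every cell. How deeply a cell was sequenced can therefore not be read from it, and the depth is unknown. Per animal, the median count of detected genes (above 0 TPM) was 6247 to 6615 in run 1 and 5460.5 to 5878 in run 2. Atg16l2 itself was detected in 38 WT cells (11.3%) and in 0 KO cells, which allows a share of up to 0.877%. The fixed marker lists ranked highest in the type they stand for, except the cycling genes, which were higher in early enterocyte progenitors (summed 1878 TPM) than in transit-amplifying (TA) cells (1663 TPM). There were 22 annotated Paneth cells (6 in WT M1, 9 in WT M2, 4 in KO M1 and 3 in KO M2) and 70 Goblet cells (13, 22, 21 and 14). In Paneth cells 12 alpha-defensin markers, which hold none of the 6 genes, summed to 595613 TPM on average.

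The annotation and the alpha-defensin level did not match in every cell. Of the 22 Paneth cells, 4 (2 of WT M1 and 2 of KO M2, all of run 1) held 3.31 to 10.7% of their TPM in the alpha-defensin markers, against 61.7 to 78.5% in the other 18. These are called defensin-poor. Conversely, 9 cells of other annotated types held over 3% of their TPM in those markers: 6 Goblet cells (5 of KO M1 and 1 of WT M1) and 1 cell each among enterocytes, early and late enterocyte progenitors, all from KO mice. These are called defensin-rich, and results that rest on them are given with and without them.

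Promoter sequence was available from RefSeq (build GRCm38.p6) for 5 of the 6 genes, and 4 are shown, those of Lyz1, Mptx2, Ang4 and Mmp7. None of these 4 genes passed the test between genotypes in Goblet cells. Itln1 is not shown, and its matches are given below. Each line gives the 150 bases before the transcription start, 5′ to 3′ on the gene's strand. Capitals mark TATAAA or TATATA, the TCF/LEF-like letters CTTTGT, and the AP-1-like letters TGAGTCA, on either strand.
Lyz1, chr10:117292869-117293018, minus strand: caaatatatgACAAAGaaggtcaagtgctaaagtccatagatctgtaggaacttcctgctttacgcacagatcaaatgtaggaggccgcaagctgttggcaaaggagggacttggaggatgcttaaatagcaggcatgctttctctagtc
Mptx2, chr1:173277757-173277906, minus strand: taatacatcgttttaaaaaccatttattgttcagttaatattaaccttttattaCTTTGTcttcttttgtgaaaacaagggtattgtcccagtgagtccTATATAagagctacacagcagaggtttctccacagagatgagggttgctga
Ang4, chr14:51773591-51773740, minus strand: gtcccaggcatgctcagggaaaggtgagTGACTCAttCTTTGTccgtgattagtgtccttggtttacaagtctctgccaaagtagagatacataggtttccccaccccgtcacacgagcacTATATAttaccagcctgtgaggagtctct
Mmp7 (the first of 2 windows), chr9:7691940-7692089, plus strand: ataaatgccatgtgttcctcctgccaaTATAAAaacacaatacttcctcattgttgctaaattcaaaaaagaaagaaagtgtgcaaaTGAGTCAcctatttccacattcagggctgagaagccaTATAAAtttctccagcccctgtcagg
CTTTGT or its reverse complement was present in Lyz1, Mptx2 and Ang4 and not in this window of Mmp7, whose second window, not shown, holds it. Over 250 bases before the start, the same letters occur in 16.5% of 32536 distinct RefSeq windows, TATAAA in 12.3%, TATATA in 5.01% and TGAGTCA in 4.45%. The related letters CTTTGA, found in 13.9% of windows, and the E-box letters CAGCTG (13.1%) and CAGATG (14.4%) were searched as well; of these, Ang4 held CAGATG and the second Mmp7 window CTTTGA. The Itln1 window held TATATA at -226, outside the 150 bases before the start, and none of the other letters searched, CTTTGT and TGAGTCA included. A match describes the letters of the window only.

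In Paneth cells Lyz1 was the most abundant of the 6 and Pla2g2a the least. Lyz1 averaged 28086 ± 15547 TPM (SD, n = 4 animals), with 31771 in WT M1, 42348 in WT M2, 32284 in KO M1 and 5939 in KO M2. Itln1 averaged 13648 ± 7454 TPM, with 14228, 21766, 14894 and 3702 in the same order. For both genes KO M2 was the lowest animal and WT M2 the highest.
Ang4 averaged 2771 ± 1617 TPM, with 2455, 4843, 2871 and 914.7. Mptx2 averaged 1854 ± 1301 TPM, with 1351, 2602, 3188 and 276.5. Ang4 and Mptx2, the ribonuclease and the pentraxin, formed a middle tier whose animal ranges overlapped.
Mmp7 averaged 726.0 ± 498.4 TPM, with 655.6, 1325, 809.9 and 113.8. Pla2g2a averaged 85.9 ± 50.1 TPM, with 65.2, 154.5, 86.9 and 37.1. All 22 Paneth cells were above 0 TPM for Lyz1, Ang4, Mmp7, Itln1 and Mptx2, and 19 of 22 for Pla2g2a.

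**Figure D1:**
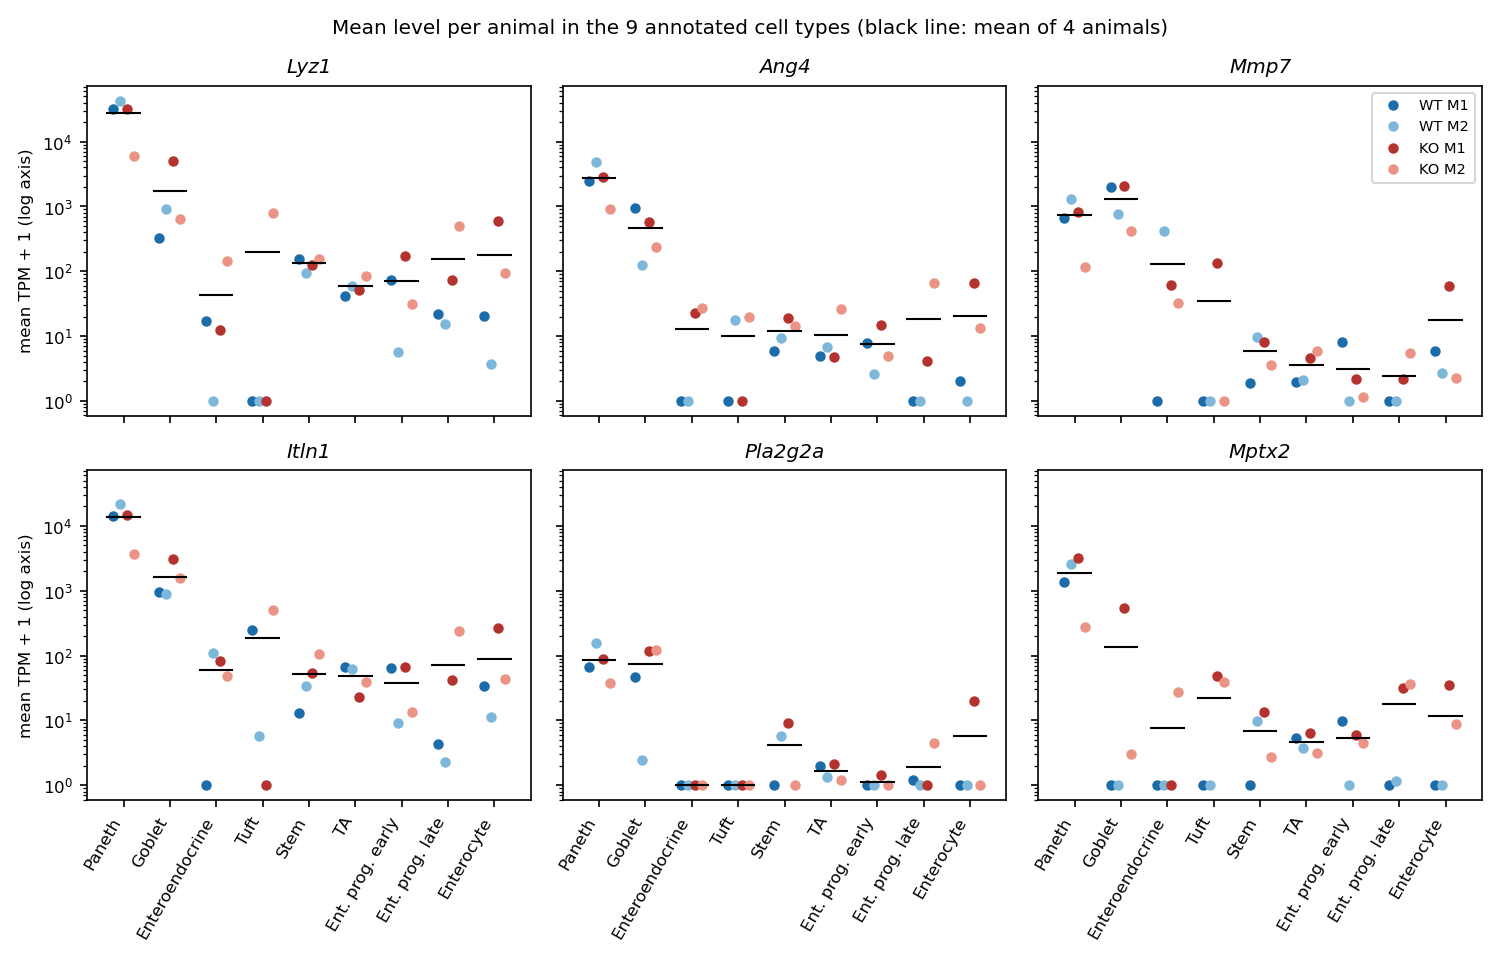
Mean TPM + 1 per animal (log axis) of the 6 genes in the 9 annotated cell types, with a black line at the mean of 4 animals. The mean over animals is highest in Paneth or Goblet cells for each gene, but single Goblet points lie among the other types for Pla2g2a (1.41 TPM in WT M2) and Mptx2 (listed at 0 in both WT animals). For Mmp7 the Goblet points reach 2102 TPM in KO M1, above every Paneth point.

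All 6 genes were also found in Goblet cells, at levels that differed widely from gene to gene. Levels by type are given as a description, since the types were annotated from the same cells. Lyz1 averaged 1748 ± 2247 TPM in Goblet cells, with 326.5 in WT M1, 918.0 in WT M2, 5099 in KO M1 and 649.5 in KO M2. KO M1 stood apart: without its defensin-rich cells it had 866.0 TPM, and the mean of the 4 animals was 683.2 ± 281.2. Lyz1 was therefore 16.1 times as high in Paneth as in Goblet cells, or 41.1 times with the defensin-rich cells left out.
Itln1 averaged 1622 ± 1004 TPM in Goblet cells (959.8, 901.6, 3059 and 1569 in the same order). Its mean became 1011 ± 422.7 TPM without the defensin-rich cells, with which KO M1 went from the highest to the lowest animal, at 550.0 TPM. Ang4 averaged 471.1 ± 375.9 TPM (957.7, 121.96, 569.7 and 235.2) and hardly moved without those cells (467.8 ± 399.3). The Goblet and Paneth ranges of Ang4 touched, because WT M1 Goblet cells lay above KO M2 Paneth cells.

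Mmp7, the defensin-processing protease, was as much a Goblet as a Paneth transcript in these cells. Its Goblet mean was 1317 ± 858.6 TPM, with 1998 in WT M1, 756.6 in WT M2, 2102 in KO M1 and 412.7 in KO M2, and these values overlapped those of Paneth cells. The order depended on the scale. On TPM the Paneth level was 0.551 times the Goblet level, and 0.727 times without the defensin-rich cells, whereas after each cell was rescaled to the same sum without the 12 alpha-defensin markers, an alternative chosen after seeing the data, it was 1.56 and 2.45 times the Goblet level. Rescaled, Mmp7 averaged 2455 ± 1800 in Paneth and 1572 ± 1167 in Goblet cells (SD, n = 4), again with overlapping animals. Since Goblet cells outnumbered Paneth cells, 79.4% of all Mmp7 TPM summed over the 677 cells lay in Goblet cells and 16.7% in Paneth cells. For Lyz1 the same shares were 15.3% and 78.3%.

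Pla2g2a and Mptx2 were the rarest in Goblet cells. Pla2g2a averaged 72.1 ± 58.5 TPM there, with 46.6, 1.41, 118.4 and 121.9, and overlapped its Paneth level. Without defensin-rich cells it was 36.5 ± 57.1 TPM, and a single cell of KO M2 with 1706 TPM held 82.8% of the sum over the remaining 64 cells. Mptx2 was listed at 0 in all 35 WT Goblet cells, which allows a share of up to 8.57% of cells, at 544.3 TPM in KO M1 and at 2.06 TPM in KO M2. Without defensin-rich cells KO M1 was at 5.53 TPM and 2 of 64 Goblet cells were above 0 TPM. Of the 6, Mptx2 had the lowest Goblet mean with those 6 cells left out, 1.90 ± 2.61 TPM, against 1854 TPM in Paneth cells.

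Outside Paneth and Goblet cells the levels were low. Mean TPM per type ran from 42.3 to 195.9 for Lyz1, from 37.4 to 186.5 for Itln1, from 6.51 to 19.5 for Ang4, from 3.66 to 21.3 for Mptx2 and from 0 to 4.65 for Pla2g2a. Without the defensin-rich cells these means ran from 36.004 to 195.9 for Lyz1 and from 16.7 to 186.5 for Itln1. The same ranges were 0.772 to 11.99 for Ang4, 3.28 to 21.3 for Mptx2 and 0 to 3.19 for Pla2g2a. In enterocytes, leaving out 1 defensin-rich cell moved Pla2g2a from 4.65 to 0 TPM and Ang4 from 19.5 to 5.05 TPM. With all cells included, animal ranges of types next to each other in rank overlapped among these 7 types for each of these genes. Types further apart in rank did not always overlap. Lyz1 was 92.6 to 154.5 TPM per animal in stem cells and 39.9 to 82.7 TPM in TA cells. The 7 types are stem, TA, early and late enterocyte progenitor, enterocyte, enteroendocrine and tuft cells.
Mmp7 ran from 1.44 to 33.6 TPM in 6 of these types, and from 0.299 to 33.6 TPM without the defensin-rich cells. It stood at 129.2 ± 198.2 TPM in enteroendocrine cells, where WT M2, with 3 cells, gave 424.1 TPM and WT M1 gave 0. Pla2g2a was listed at 0 in all 32 enteroendocrine cells, which allows up to 9.38%, and in all 7 tuft cells, which allows up to 42.9%.
Of the 585 cells of the 7 types, 35.2% were above 0 TPM for Lyz1 and 27.01% for Itln1. The shares were 7.86% for Ang4, 5.64% for Mptx2, 5.13% for Mmp7 and 3.25% for Pla2g2a. As a background of single genes, the mucin gene Muc2 was above 0 TPM in 26.2% of these cells. The Goblet markers Tff3, Spink4 and Agr2 were so in 22.6, 22.4 and 19.8%, and the alpha-defensin gene Defa24 in 49.9%. At least 1 of the 12 alpha-defensin markers together was above 0 TPM in 91.5%, which is not a share of a single gene. Above 100 TPM were 84 cells for Lyz1 and 63 for Itln1, with median alpha-defensin shares of 0.105% and 0.163% of TPM against 0.0106% and 0.0108% in cells where the gene was listed at 0. Whether these transcripts come from the cell itself or from RNA released by Paneth cells was not tested.

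The proportions among the genes were different in Goblet cells and in Paneth cells. In Paneth cells Itln1 stood at 48.97% of Lyz1, Ang4 at 10.1%, Mptx2 at 6.28%, Mmp7 at 2.70% and Pla2g2a at 0.312%. In the 7 other types pooled, without defensin-rich cells, Itln1 stood at 61.7% of Lyz1, Ang4 at 12.1% and Mptx2 at 8.27%. Those 3 values lie close to the Paneth ones, whereas Mmp7 (10.2%) and Pla2g2a (1.37%) lie above. By type, with defensin-rich cells included, Mmp7 stood at 88.1% of Lyz1 in the 32 enteroendocrine cells and at 17.1% in the 7 tuft cells. Among the rest it ran from 0.886% in late progenitors to 9.16% in enterocytes. In Goblet cells without defensin-rich cells Itln1 and Mmp7 each exceeded Lyz1 (134.6% and 135.05%), Ang4 was at 55.9% and Mptx2 at 0.251%. These ratios pool cells over animals and carry no error. In single Paneth cells with at least 20% alpha-defensin, Itln1 ran from 33.7 to 88.96% of Lyz1 (median 47.1%) and Mptx2 from 0.684 to 25.99% (median 5.11%), so Mptx2 was the less even of the pair.

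**Figure D2:**
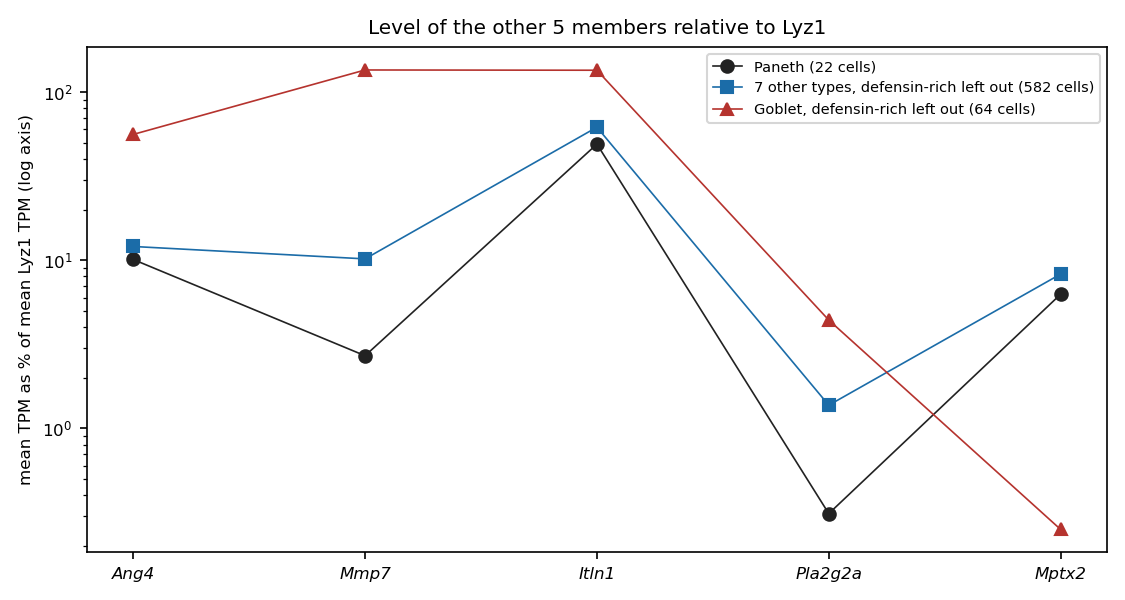
Mean TPM of the other 5 genes as a percentage of mean Lyz1 TPM (log axis) in Paneth cells, in Goblet cells and in the 7 other types pooled, the last 2 without defensin-rich cells. The 7 other types follow the Paneth values for Ang4, Itln1 and Mptx2, and Goblet cells lie above for Ang4, Mmp7, Itln1 and Pla2g2a and below for Mptx2 (0.251%).

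Cell by cell, the Goblet signal was a patchwork. Among all 70 Goblet cells, Lyz1 was above 0 TPM in 55 (78.6%, exact 95% binomial interval 67.1 to 87.5%, counting error only), Mmp7 in 48 (68.6%), Itln1 in 39 (55.7%), Ang4 in 33 (47.1%), Pla2g2a in 18 (25.7%) and Mptx2 in 6 (8.57%). In the 64 that were not defensin-rich, 40 exceeded 100 TPM for Lyz1, 37 for Mmp7, 27 for Itln1, 14 for Ang4, 1 for Pla2g2a and 0 for Mptx2. None of the 6 genes exceeded 100 TPM in 8 of these cells, 1 gene did in 18, 2 in 19, 3 in 13 and 4 in 6. No Goblet cell outside the defensin-rich ones carried 5 or 6 of them at that level. With 0 cells for Mptx2 and 1 for Pla2g2a, 6 was not possible and 5 was possible in at most 1 cell. Of the 22 Paneth cells, 9 exceeded 100 TPM for Pla2g2a, 20 for Mmp7 and 22 for each of Lyz1, Ang4, Itln1 and Mptx2.
High values sat in few cells. The highest Goblet cell held 11886 TPM of Ang4, 45.5% of the sum over 64 cells, and the highest Lyz1 cell held 11903 TPM, 25.5% of its sum. More than 1000 TPM were reached by 17 cells for Mmp7, 15 for Itln1, 8 for Lyz1 and 6 for Ang4.

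**Figure D3:**
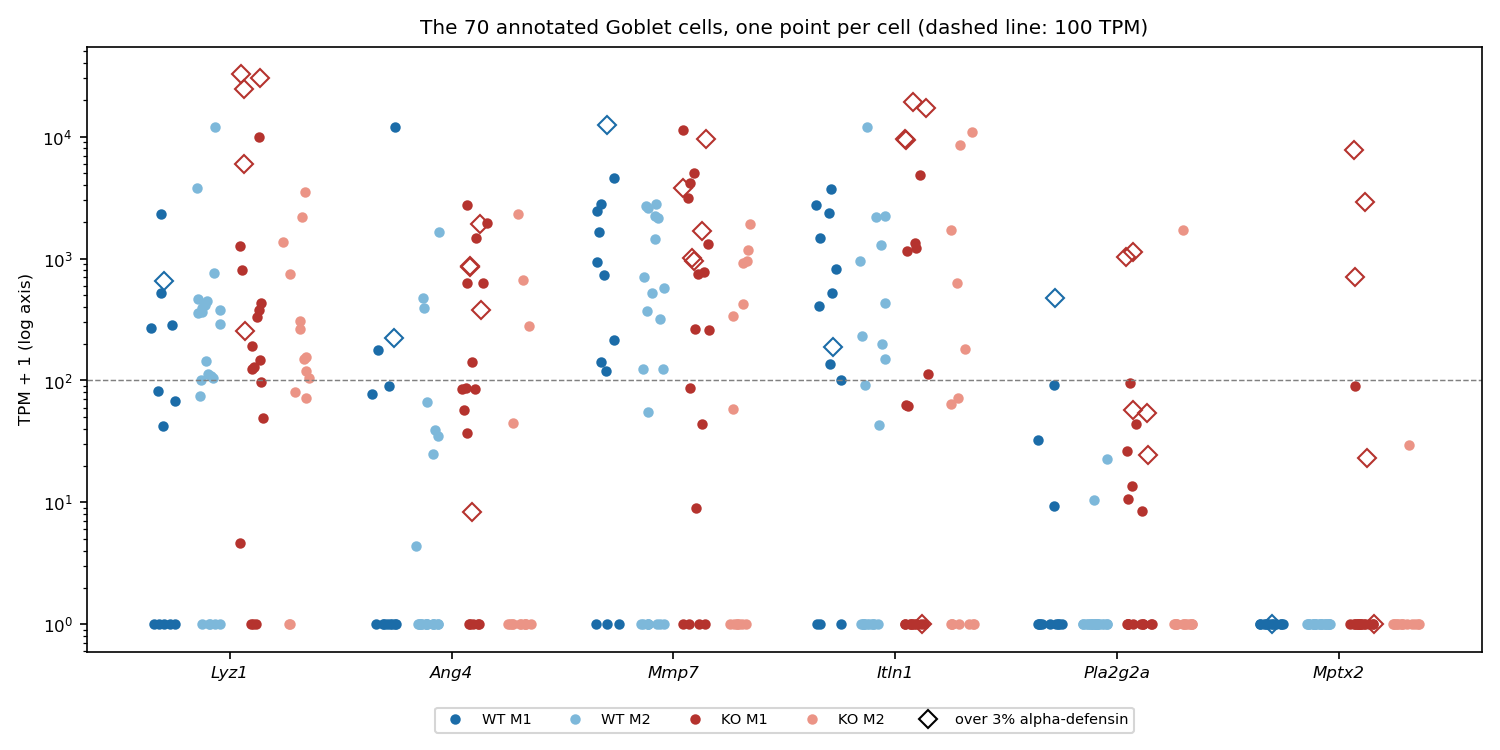
TPM + 1 (log axis) of the 6 genes in each of the 70 annotated Goblet cells, by animal; open diamonds are cells with over 3% of TPM in alpha-defensin markers. Mptx2 lies at 0 TPM in most cells and exceeds 100 TPM in 3, all of them open diamonds.

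Rank correlations among the genes were higher over Paneth than over Goblet cells. Spearman's rho between pairs of the 6 genes ran from 0.443 (Ang4 with Mptx2) to 0.866 (Lyz1 with Itln1) over 22 Paneth cells, and from 0.179 to 0.773 over the 18 with at least 20% alpha-defensin. Mmp7 with Pla2g2a (0.773), Ang4 with Lyz1 (0.756) and Lyz1 with Itln1 (0.754) were the closest pairs among those 18. Over the 64 Goblet cells rho ran from -0.146 to 0.294, with Mmp7 and Itln1 the highest pair. Lyz1 and Ang4 had a rho of 0.756 in the 18 Paneth cells and of 0.000821 in the Goblet cells. These are descriptions over cells that share animals and a fixed TPM sum, and cells with more genes above 0 TPM had lower Lyz1 in Paneth cells (rho -0.503, n = 22). Within the 18 Paneth cells Mmp7 also followed the summed Goblet markers (rho 0.874), and Pla2g2a did so with 0.833. Over the 64 Goblet cells Mmp7 had a rho of 0.0197 with those markers and of 0.500 with the alpha-defensin share, and Pla2g2a of -0.224 and 0.231.

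The 4 defensin-poor Paneth cells had low Lyz1 and Itln1 and lay at or below the low end of the other 18 for Mptx2, Mmp7 and Ang4. Their Lyz1 was 1427 to 5394 TPM against 8686 to 106784 TPM in the other 18, and Itln1 was 1039 to 3043 against 5447 to 39050. Neither gene overlapped between those sets of cells. Mptx2 (110.8 to 429.0 against 312.8 to 8171 TPM), Mmp7 (60.8 to 146.8 against 133.7 to 2292) and Ang4 (659.4 to 901.1 against 700.1 to 13908) overlapped. Pla2g2a was listed at 0 in 3 of the 4 and was 68.2 TPM in the fourth, inside the 19.3 to 331.06 TPM of the other 18. Their summed Goblet markers were 0.0410 to 2.54% of TPM, and 6025 to 10472 genes were above 0 TPM against 4074 to 9180.
Among the 6 defensin-rich Goblet cells, 3 of KO M1 held 75.3 to 77.5% alpha-defensin with 0.126 to 0.302% Goblet markers. Their Lyz1 was 5933, 30276 and 32328 TPM and their Mptx2 2920, 700.9 and 7700 TPM, within the range of the 22 Paneth cells. The lowest Lyz1 lay between those of the 4 defensin-poor and the other 18 Paneth cells. The other 3 held 5.30 to 15.5% Goblet markers and 6.29 to 43.6% alpha-defensin, with Mmp7 of 3805 to 12406 TPM, Pla2g2a of 474.3 to 1135 TPM and Mptx2 of 0 to 22.3 TPM. Those 3 cells exceeded every Paneth cell in both Mmp7 and Pla2g2a. No doublet caller was run, and whether these cells hold material of 2 cells was not tested.

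**Figure D4:**
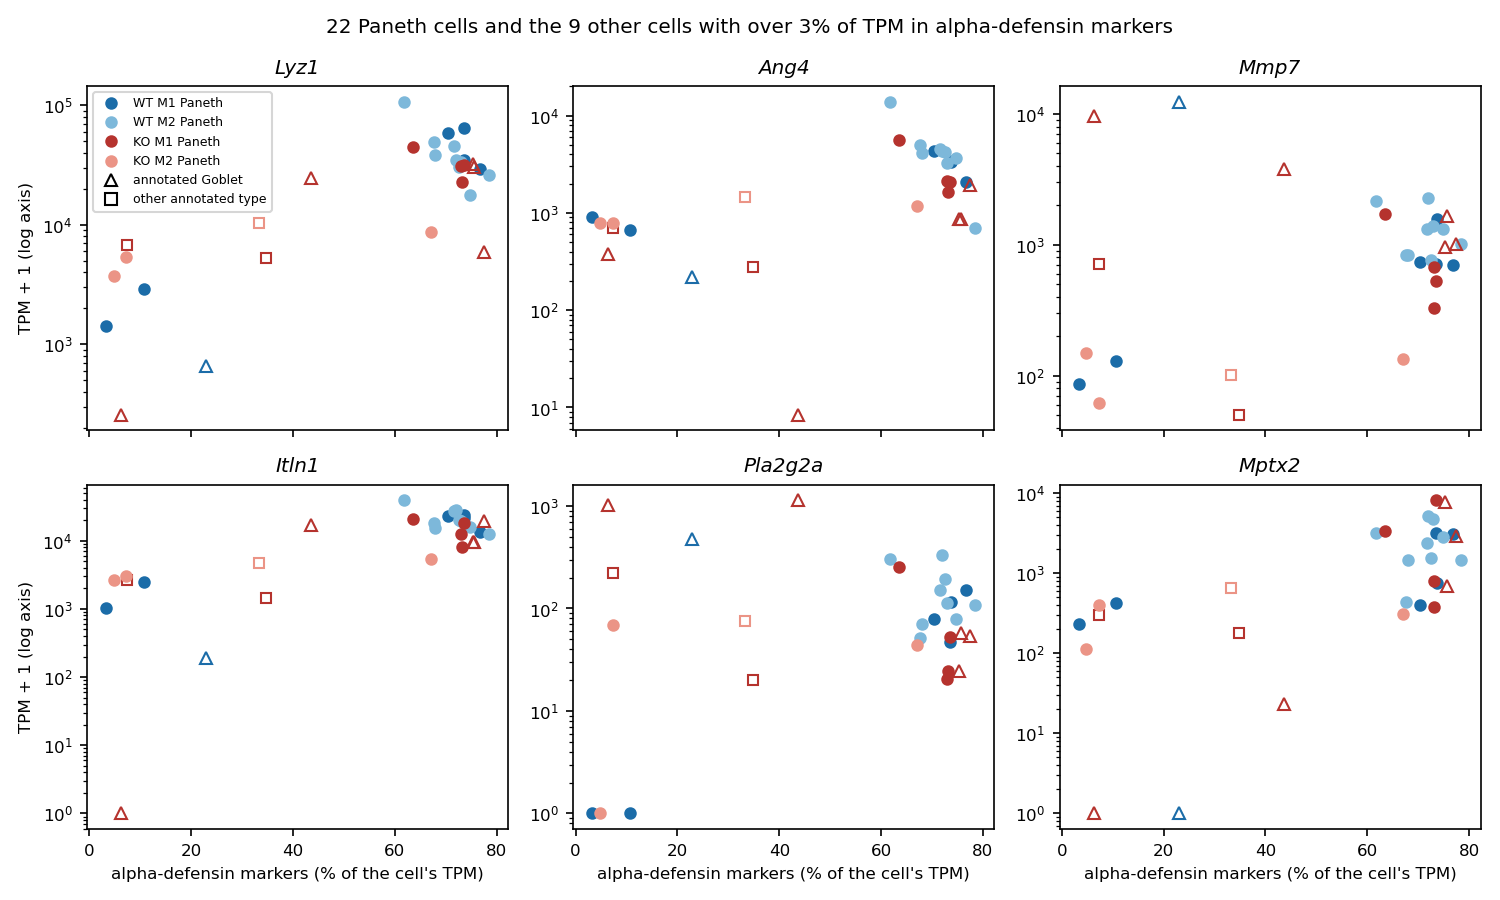
TPM + 1 (log axis) of the 6 genes against the share of the cell's TPM in 12 alpha-defensin markers, for the 22 Paneth cells (filled circles) and the 9 defensin-rich cells of other types (open symbols). The 4 defensin-poor Paneth cells sit at the left with Lyz1 of at most 5394 TPM, and 3 open triangles of KO M1 fall among the Paneth cells at the right.

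The genotypes were compared on log2(TPM + 1) of each animal's mean with limma, first over the unweighted average of the 6 types that had at least 10 cells in every animal (stem, TA, both progenitors, enterocyte and Goblet). No gene passed an adjusted p of 0.05 in that comparison (0 of 6777 genes tested, 0%), and 513 had an unadjusted p below 0.05. Lyz1 was at 6.01 and 5.11 in WT and 7.97 and 7.25 in KO on this averaged log2 scale. Both KO animals lay above both WT animals, by 2.05 (SE 0.32, limma adjusted p = 0.302). With 1 animal left out it ranged from 1.61 (limma adjusted p = 0.992, without WT M2) to 2.504 (0.196, without WT M1), and it passed without KO M1 (1.70, adjusted p = 0.0489) and without KO M2 (2.41, 0.0110). In these fits the lone animal was assumed to vary like the remaining pair.
Ang4 was at 3.13 and 2.38 in WT and 4.604 and 4.743 in KO, a difference of 1.92 (SE 0.28, limma adjusted p = 0.302). The adjusted p was 0.0489 without KO M1, 0.183 without KO M2, 0.151 without WT M1 and 0.992 without WT M2. Itln1 was at 5.48 and 4.79 in WT and 6.89 and 6.62 in KO, a difference of 1.62 (SE 0.23, limma adjusted p = 0.302). The adjusted p was 0.0489 without KO M1, 0.0427 without KO M2, 0.151 without WT M1 and 0.992 without WT M2. For these genes too the groups did not overlap, which was so in this direction for 22.3% of all genes tested.
Mmp7 overlapped between genotypes (3.07 and 2.56 in WT, 4.07 and 2.83 in KO; difference 0.64, SE 0.41, limma adjusted p = 0.733). Pla2g2a and Mptx2 did not pass the filter on low values, and without it limma gave 1.19 (SE 0.46) and 2.69 (SE 0.77), each with an adjusted p of 0.854. Both KO animals lay above both WT animals for these 2 genes as well.

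Much of that difference moved with a few cells. With the 9 defensin-rich cells left out, 8 of which were of KO mice, the averaged log2 difference was 1.07 for Lyz1, 1.07 for Ang4, 0.82 for Itln1, 1.67 for Mptx2, 0.51 for Pla2g2a and -0.11 for Mmp7. Within run 1 it was 2.09 for Lyz1 and 0.61 for Ang4, and within run 2 1.77 and 2.69. Itln1 gave 1.69 and 1.37 in the same runs. Among 11 alpha-defensin markers that passed the filter, 11 were higher in KO, with a median of 2.10 against 0.03 over all genes tested, and 0 passed the test. Their part in the result was not tested.
By type, Lyz1 had both KO animals above both WT animals in late progenitors and enterocytes, as did 14.1 and 16.4% of the genes that passed the filter in those types. In enterocytes Lyz1 was 19.6 and 2.77 TPM in WT and 597.7 and 94.3 in KO, where KO M1 was at 44.1 TPM without its 1 defensin-rich cell. In late progenitors it was 21.1 and 14.2 in WT and 72.9 and 507.0 in KO, where KO M2 was at 35.9 TPM without its 1 defensin-rich cell. The genotypes did not overlap with or without those cells, and the log2 difference without them was 2.90 in enterocytes and 1.51 in late progenitors, against 4.76 and 3.40 with them. Within run 2 alone the Lyz1 groups overlapped in late progenitors, at 0 TPM in KO M1 (4 cells) and 23.5 and 19.4 in WT.
Itln1 had both KO animals above both WT animals in stem cells (background 18.2%), late progenitors and enterocytes, also without the defensin-rich cells. It went the other way in TA cells, where WT had 66.3 and 62.2 TPM and KO 21.8 and 38.1, as did 13.3% of genes there. Within run 1 alone the Itln1 groups overlapped in TA and stem cells, and within run 2 alone in late progenitors. Ang4 was higher in both KO animals in stem cells, at 4.88 and 8.30 TPM in WT and 18.3 and 13.1 in KO. It also was in late progenitors, enterocytes and enteroendocrine cells (background 21.8%), 3 types in which it did not pass the filter on low values. In late progenitors this was lost without the 1 defensin-rich cell, with Ang4 listed at 0 in KO M2 instead of 65.7 TPM. In stem cells the Ang4 groups overlapped within run 1 alone, at 0 TPM in KO M2 (4 cells) and 9.58 and 10.7 in WT. Below the filter too, Mmp7 was higher in both KO animals in TA cells (background 26.8%) and late progenitors, and Mptx2 in late progenitors and enterocytes. For Mmp7 in late progenitors the groups overlapped without the defensin-rich cell. Within run 2 alone Mptx2 in late progenitors was at 0 TPM in KO M1 and in both WT animals.

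In Goblet cells 1 of 6196 genes passed (0.0161%), Olfm4, and none of the 6 secretory genes did. Itln1 (difference 1.24, SE 0.29, limma adjusted p = 0.508) and Pla2g2a (3.499, SE 0.93, adjusted p = 0.560) had both KO animals above both WT animals, as did 15.8% of all genes tested. So did Mptx2, which was below the filter and listed at 0 in WT. Without the filter limma gave it 5.35 (SE 2.44, adjusted p = 0.891). Lyz1 overlapped (1.73, SE 0.69, adjusted p = 0.710), with KO M1 high and KO M2 between the WT animals. Mmp7 (-0.40, SE 0.58, limma adjusted p = 0.962) and Ang4 (0.10, SE 0.69, adjusted p = 0.991) overlapped as well. These values turned on single animals. Lyz1 was 3.22 without KO M2 (limma adjusted p = 0.00163), 0.25 without KO M1 (0.904), 0.99 without WT M1 (0.9998) and 2.48 without WT M2 (0.862). Itln1 was 1.72 without KO M2 (limma adjusted p = 0.0127) and 0.75 without KO M1 (0.411), and 1.28 and 1.19 without WT M1 and WT M2 (0.790 and 0.862). Pla2g2a was 5.65 without WT M1 (limma adjusted p = 3.65e-05) and 1.35 without WT M2 (0.883), and 3.52 and 3.48 without KO M1 and KO M2 (0.250 and 0.452).
Without the defensin-rich cells the Goblet differences were 0.52 for Lyz1, -0.05 for Itln1, -0.05 for Ang4, -0.14 for Mmp7 and 2.90 for Pla2g2a. Pla2g2a still had both KO animals above both WT animals without them, as did 22.8% of the genes that passed the filter. Mptx2 did as well, below the filter. Within run 1 the Goblet differences were 0.51 for Lyz1, 1.05 for Itln1, -2.33 for Ang4, 0.01 for Mmp7 and 3.61 for Pla2g2a. Within run 2 they were 4.58, 1.53, 2.17, -0.88 and 1.16. Ang4 thus pointed in opposite directions in the 2 runs. Run 2 held 3 Goblet cells of WT M1, in which Lyz1 was listed at 0, and 4 of the 5 defensin-rich Goblet cells of KO M1.
The share of Goblet cells above 0 TPM for Lyz1 was 61.5 and 77.3% in WT and 85.7 and 85.7% in KO, a difference of 16.3 points (exact permutation p = 0.333, two-sided, the smallest that 2 against 2 animals allow). For Mptx2 it was 0 and 0% in WT and 23.8 and 7.14% in KO (exact permutation p = 0.333), and for the other 4 genes the groups overlapped (exact permutation p = 1). Adjusted over the 6 genes all were 1.

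In Paneth cells all 6 genes had lower fitted values in KO, by 0.81 (Pla2g2a) to 1.61 (Mmp7) on the log2 scale, and KO M2 was the lowest animal for each. The values were -1.41 for Lyz1 (SE 1.35), -1.24 for Itln1 (SE 1.60), -1.09 for Ang4 (SE 2.25) and -0.996 for Mptx2 (SE 2.48), each with a limma adjusted p of 0.9999. No gene of 2632 tested passed (0%), and 0 had an unadjusted p below 0.05. Both KO animals lay below both WT animals for 2.74% of genes tested and for 0 of the 6. KO M1, with 4 cells, was within or above the WT values for Lyz1, Ang4, Mmp7, Itln1, Pla2g2a and Mptx2, and KO M2 had 3 cells, of which 2 were defensin-poor. Without KO M2 the differences ran from -0.26 to 0.77. With the 4 defensin-poor cells left out, an alternative chosen after seeing the data in which KO M2 is a single cell, they ran from -0.99 (Pla2g2a) to -1.75 (Mmp7; limma adjusted p = 0.0874), and 681 other genes passed. Over all genes tested the median difference was 0.75, and for the 12 alpha-defensin markers kept it was -0.54. Within run 1 the sign was negative for each of the 6, and run 2 held no Paneth cell of KO M1.

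**Figure D5:**
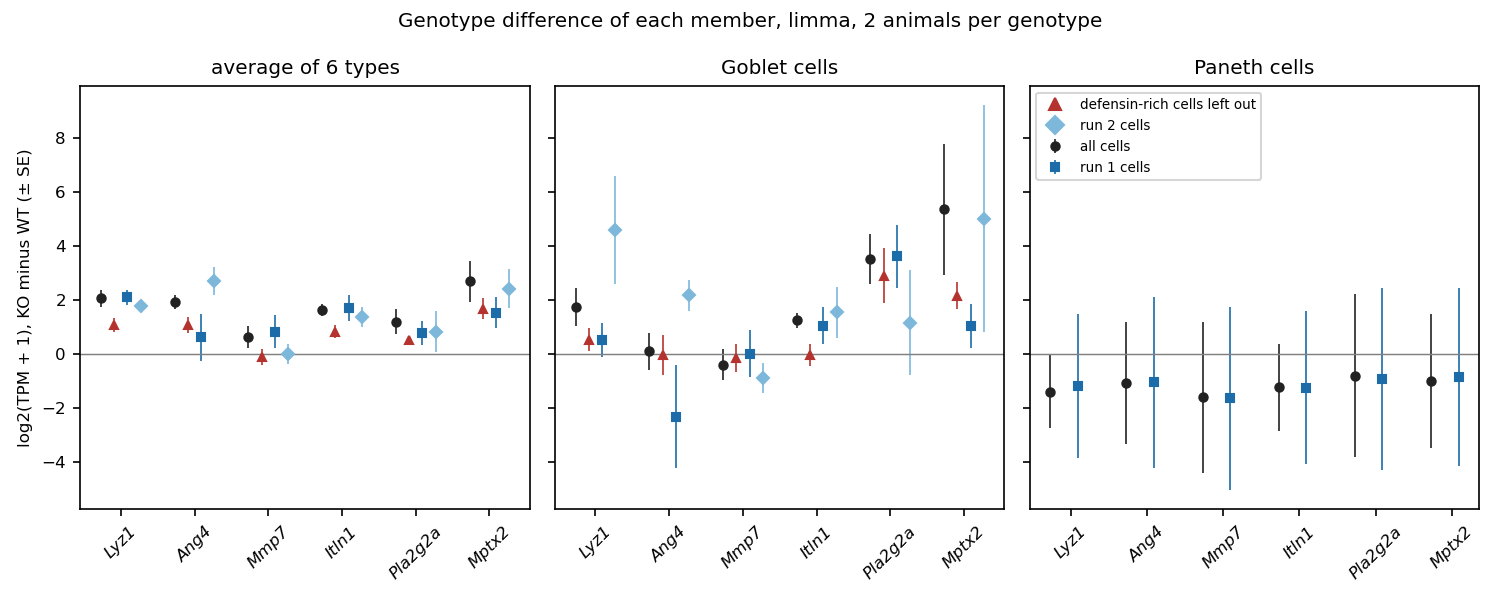
Difference of KO minus WT in log2(TPM + 1) with its SE from limma for the 6 genes, in the average of 6 types, in Goblet cells and in Paneth cells, for all cells, without defensin-rich cells and within each run. The Goblet values spread from -2.33 to 5.35 and the Paneth values lie below 0, with error bars that cross it except for Lyz1 over all cells (-1.41, SE 1.35). The highest Goblet value is that of Mptx2, which was listed at 0 in WT Goblet cells and so has no interpretable fold.

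Near-identical relatives could share reads with these genes, and RSEM divides such reads by estimate. Lyz2, the lysozyme of macrophages, matched Lyz1 at 95.1% of 447 aligned coding bases but stayed low, at 9.89 TPM in Paneth and 1.89 TPM in Goblet cells. The summed macrophage and monocyte markers were at most 11.5 TPM per animal in Paneth and 4.45 TPM in Goblet cells. Mptx1 matched Mptx2 at 92.5% of 708 bases, and averaged 163.8 ± 109.2 TPM in Paneth and 68.6 ± 33.5 TPM in Goblet cells (SD, n = 4), with 17 of 70 Goblet cells above 0 TPM. Its Goblet level showed in every animal (94.9 and 75.3 in WT, 84.4 and 19.9 in KO), whereas Mptx2 did not.
Ang, the common angiogenin, matched Ang4 at 85.5% of 435 bases and was spread otherwise. On TPM it was highest in Goblet (150.8 ± 37.1 TPM) and enteroendocrine cells (142.2 ± 68.8 TPM) and lower in Paneth cells (33.9 ± 9.06 TPM). Levels of Ang rescaled without the alpha-defensin markers were not examined. The related phospholipase gene Pla2g2f was highest in enteroendocrine cells, at 179.3 ± 114.9 TPM, where Pla2g2a was listed at 0. On TPM, Ang and Pla2g2f thus had other highest types than Ang4 and Pla2g2a. Lyz2 and Mptx1 were highest in Paneth cells, as Lyz1 and Mptx2 were. How far reads were divided rightly between them was not tested.

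Over the 36 means of 9 types and 4 animals, and among 9697 genes with at least 10 TPM in a type, each member was compared with every other gene by Pearson's r of log2(TPM + 1). Lyz1 lay closest to the alpha-defensin genes Defa3 (0.927), Defa24 (0.897) and Defa26 (0.874), and Mptx2 closest to Gm7849 (0.921), Gm14851 (0.921) and AY761184 (0.918). Mmp7 lay closest to Mptx1 (0.829), Nupr1 (0.824) and Ccl6 (0.800), followed by Habp2 and the Goblet marker Spink4. Pla2g2a had Mptx1 (0.882), Nupr1 (0.854) and Habp2 (0.840), followed by the alpha-defensin gene Defa25 (0.818) and Spink4. Ang4 lay closest to Mptx1 (0.898) and Defa17 (0.873), and Itln1 to Defa24 (0.854) and Mptx1 (0.842). These values describe a shared distribution over types, as the same cells underlie all 36 means.

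Other genes of the secretory lineage were followed from lists that hold none of the 6. Of 19 transcription factors and signals of secretory fate, 13 passed the filter in Goblet cells, 12 with a higher value in KO (median 0.25 against -0.0042 over all genes tested), and 0 passed the test. Foxa2 was at 18.6 and 14.3 TPM in WT and 35.1 and 31.8 in KO (difference 0.99, SE 0.43, limma adjusted p = 0.769). A list of 14 other products was named Paneth-enriched, but it summed to 5150 TPM in Paneth cells, 5245 in Goblet cells and 7165 over all cells. As a sum it was thus not particular to Paneth cells here. Of its genes, 11 passed the filter in Goblet cells, 9 with a lower value in KO and 2 with a higher one, and 0 passed the test. Among them Nupr1, a stress-responsive chromatin protein gene, was at 252.5 and 137.8 TPM in WT and 58.1 and 84.03 in KO (difference -1.40, SE 0.36, adjusted p = 0.560). The lectin gene Reg3g was at 2961 and 1366 in WT and 1892 and 93.8 in KO (-2.25, SE 0.91, limma adjusted p = 0.716). Of 16 genes for granule release and autophagy cargo, 14 passed the filter, 9 were higher and 5 lower, and 0 passed the test. The summed 10 Goblet markers were 186058 and 139757 TPM in WT and 129200 and 106123 in KO Goblet cells, and the part of this in the members' values was not tested.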

How the data were processed

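Cells were grouped by genotype, run, animal code and annotated cell type from the library titles. The labels name SMART-Seq2 and also a 10X Genomics kit; which cells it concerns was not analysed here. The authors used Bowtie, TopHat and RSEM, per the submitters' processing notes, with versions and genome build not given in the sources used here. The deposited values are TPM for 23420 genes and 677 cells, with the same sum in each cell; 0 columns were unmatched and 0 were identical. No cell was removed and no doublet caller was run. For each animal and type, mean TPM was taken as log2(TPM + 1), and genes with a mean of at least 10 TPM and above 0 TPM in at least 10% of cells were kept. KO and WT were compared with limma 3.58.1 (R 4.3.3, eBayes with trend, 2 residual df) in a two-sided test, adjusted by Benjamini-Hochberg over the kept genes. The procedure was tested on simulated data, in which the cells of every animal were drawn from a shared pool per type. Those animals had no added spread between them, so the simulation cannot show how the fit handles such spread. Members below the filter were taken from the fit without it. Named genes were all 6 members, for each member the 5 genes of closest pattern, of each list those with the smallest p, and paralogs of members. The members, lists and alternatives were chosen with earlier results of these data known. Coding sequences are the longest reading frames of GENCODE vM21 transcripts, aligned with Biopython. Promoters are from RefSeq (GRCm38.p6).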

Additional observations from a re-analysis of the deposited data

Results flagged for a closer look

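Itln1 differed in direction between cell types, which was seen and not tested. Both KO animals lay above both WT animals in Goblet cells (log2 difference 1.24), stem cells (1.86), late enterocyte progenitors (4.98) and enterocytes (2.44), and both lay below in TA cells (-1.13). The Goblet value includes 6 defensin-rich cells, 5 of them of KO M1, and without them it was -0.049 with overlapping groups. The late progenitor and enterocyte values each include 1 defensin-rich KO cell, and without it they were 3.27 and 1.13, still with both KO animals above. Of the genes that passed the filter, both KO animals lay above both WT animals for 15.8% in Goblet cells, 18.2% in stem cells, 14.1% in late progenitors and 16.4% in enterocytes, and below for 13.3% in TA cells. Within single runs the direction did not always hold. In run 1 the groups overlapped in TA cells (46.5 TPM in KO M2, 30.8 in WT M2) and stem cells (6.08 in KO M2, 40.5 in WT M2). In run 2 they overlapped in late progenitors (0 in KO M1, 4.46 in WT M1). Goblet groups overlapped in both runs, and in enterocytes both KO animals lay above in each run. With 2 animals per genotype no group was large enough to be tested for a single outlying animal.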

How the results depend on the processing

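Counts of passing genes moved as follows. For the average of 6 types (0 genes) they were 6 with run 2 cells only, 2 with the replicate block, 46 with a crossed replicate block added after seeing the data, and 0 to 57 when 1 animal was left out. For Goblet cells (1 gene) they were 9 with log2 averaged over cells, 0 with run 1 cells only, 48 with the replicate block, 0 with quantile normalization, 0 without the trend, 0 with no filter, and 0 to 23 when 1 animal was left out. For Paneth cells (0 genes) they were 681 without the defensin-poor cells, which leaves KO M2 with 1 cell, and 89 with the crossed replicate block, both added after seeing the data. Run 2 cells only could not be fitted for Paneth cells. Same-numbered animals did not deviate together (correlations of -0.13 in the average, 0.06 in Goblet and -0.43 in Paneth cells), so the M numbers were not taken as pairs. Some member differences passed only in an alternative fit. With the replicate block, which takes the M numbers as pairs, Lyz1, Itln1 and Pla2g2a passed in Goblet cells (limma adjusted p = 1.57e-08, 0.000218 and 3.03e-13). Lyz1 also passed with it in the average (0.0307). In the average Lyz1 passed in run 2 (0.0147), and Lyz1, Ang4 and Itln1 with the crossed block (0.01998 each). The other members did not pass in these fits. Of the member differences, these turned sign. In the average, Mmp7 was -0.020 with log2 averaged over cells, -0.0076 in run 2 and -0.11 without defensin-rich cells. In Goblet cells, Ang4 was -2.33 in run 1, -0.049 without defensin-rich cells, -0.54 without KO M1 and -1.38 to 1.58 when 1 animal was left out, lowest without WT M2, Mmp7 was 0.0062 in run 1, 0.30 without WT M1 and -1.57 to 0.77 when 1 animal was left out, highest without KO M2, and Itln1 was -0.73 with log2 averaged over cells and -0.049 without defensin-rich cells. In Paneth cells, Mptx2 was -2.76 to 0.77 when 1 animal was left out, highest without KO M2. The Goblet share above 0 TPM turned for Mmp7 in run 1 (0.299 points) and for Itln1 in run 2 (11.8 points). The causes were not tested. The other member results kept their direction. Unknown depth and 3 to 9 Paneth cells per animal limit the precision.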
